A study of Mus musculus with 15 samples.

Results

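The large intestine of mice given a high dose of a non-polar algal extract was compared with that of mice given the vehicle, by RNA sequencing of 3 libraries per group. The 3 extract libraries (21, 23 and 25) came from mice dosed with 1.0 g/kg of the extract, and the 3 vehicle libraries (2, 4 and 5) are those labelled as controls. All mice were male C57Bl/6 aged 4 weeks. The agents were dissolved in Chremophor EL with 10% DMSO and given by gavage on 3 consecutive days, 24 h apart, and the tissue was taken 12 h after the last dose. The labels name no agent for the controls, so that the vehicle is taken here from the protocol the groups share. Nor do they tell if each library is a separate mouse. If some are not, the p-values below describe the spread of these samples alone. Of 44049 genes with a value in any of the series' 15 libraries, 43531 had one in all 6 used here, and 8267 of these reached 1 FPKM in at least 3 libraries and were tested. FPKM scales the fragments of a gene by its length and by the size of the library, so that a short gene can have a high FPKM on few fragments. Only 756 of the tested genes were listed under their own identifier in all 6 tables. For the others the value in some library is that of an assembled locus matched to the gene by shared span. The spans of locus and gene need not be identical, and the rule is given with the processing below.

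A non-polar extract of an alga holds lipophilic compounds, and several phenols and quinones of algae are electrophiles or become so in the cell. Electrophiles act on the transcription factor NRF2 (gene Nfe2l2). In a resting cell KEAP1 binds NRF2 and hands it to a ubiquitin ligase for breakdown. When cysteines of KEAP1 are modified, NRF2 accumulates, enters the nucleus, pairs with a small MAF protein and binds the antioxidant response element of its target genes. The targets make and use glutathione and thioredoxin, reduce quinones and carbonyls, supply NADPH, break down heme and store iron. The colonic epithelium, which meets dietary and microbial electrophiles first, is rich in several of these enzymes.

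No gene passed the test after adjustment. Limma's test on log2(FPKM + 1), adjusted by Benjamini-Hochberg over the 8267 genes, called 0 genes (0%) at an adjusted p under 0.05, and the smallest adjusted p was 0.0637. At an unadjusted p under 0.05 limma gave 1120 genes with higher and 24 with lower values in the extract libraries. The differences were lopsided as a whole: 6594 genes (79.8%) lay above 0 and 1673 below, with a median log2 difference of 0.83. Every extract value lay above every vehicle value for 1540 genes (18.6%) and below for 40 (0.484%). Such genes are called non-overlapping here. After median-of-ratios scaling between libraries the median log2 difference was 0.33 and the counts were 1248 and 306, and after quantile normalization they were -0.0498, 881 and 678. With a pseudocount of 0.1 in place of 1, limma called 447 genes higher and 0 lower. No direction below is a call, and a list's median is given relative to the median of 0.83 over all genes.

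The libraries differed in depth and in the share of fragments that fell in genes. Fragments were estimated from the width of each deposited FPKM interval. The estimates for protein-coding genes came to 174904, 556401 and 279240 in the extract libraries, against 51766, 226531 and 25233 with the vehicle, where library 4 exceeded extract library 21. Over all loci the totals were 294998, 1045233 and 472431 with the extract and 752138, 730152 and 64628 with the vehicle, so that the groups overlapped in total depth. Annotated genes took 56.9 to 64.9% of the fragments in the extract libraries but 8.52%, 34.0% and 46.6% in vehicle libraries 2, 4 and 5, and 46.8% of library 2 lay between genes. A further 43.7% and 57.7% of the fragments of vehicle libraries 2 and 4 (27.1% in library 5, 23.1 to 36.8% with the extract) lay in other assembled loci inside genes and are not part of the gene values. A value of 0 in these libraries therefore means no fragments in the gene's own locus. Of the tested genes, 1.34 to 3.47% were listed at 0 in an extract library and 15.4 to 37.9% in a vehicle library. Across tested genes, Pearson's r was 0.654 to 0.703 between extract libraries and 0.270 to 0.314 between vehicle libraries, with no p since genes are not replicates. The share of fragments in genes was higher in every extract library than in any vehicle library, and treatment and this share cannot be told apart in this design. A stricter limit was therefore set after seeing the data: the lowest extract value also had to exceed the FPKM that 3 estimated fragments would give in each vehicle library. It left 389 genes (4.71%), and 349 of the 1540 were listed at 0 in all 3 vehicle libraries.

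**Figure D1:**
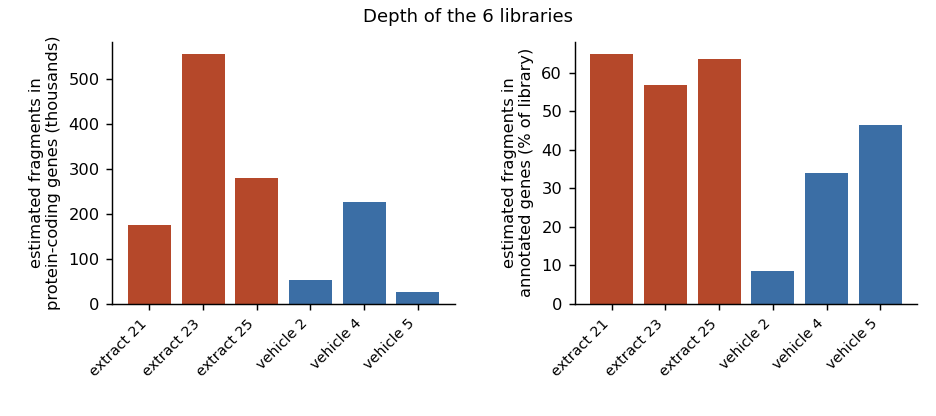
Estimated fragments in protein-coding genes (left) and the share of a library's estimated fragments that lay in annotated genes (right, percent), 1 bar per library, extract high dose in red and vehicle in blue. Vehicle library 5 held 25233 fragments and library 2 had 8.52% of its fragments in genes, while every extract library had at least 56.9%.

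NRF2 target genes held a larger share of non-overlapping members than all genes tested. Of 55 listed genes, 45 were tested, 5 of them only because of their extract values. Among the 45, 43 had a difference above 0 and 23 (51.1%) were non-overlapping and higher with the extract, against 18.6% of all genes. The stricter limit was passed by 17 (37.8%, against 4.71%), and 0 were non-overlapping and lower. That limit is easier to pass for genes with many fragments. In the extract library that held most, the non-overlapping members had a median of 102.8 estimated fragments, against 30.6 for all non-overlapping higher genes. The median relative to all genes was 1.24 on the log2 scale, and 1.01 to 1.59 when any 1 library was left out. Without vehicle library 2, 4 or 5 the members held 55.6%, 66.7% and 57.8% of non-overlapping genes, against 20.7%, 47.2% and 30.4% of all genes. After median-of-ratios scaling the shares were 37.8% and 15.1%, and after quantile normalization 40% and 10.7%. Other lists had a larger share in some of these settings: respiratory chain genes had 45.3% after median-of-ratios scaling and 50% after quantile normalization, and goblet cell markers had 41.7% and 58.3%, and 41.7% beyond the stricter limit. None of the 45 was called.

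To show which members carry a sequence of the response element type, the core TGACNNNGC (N is any base) was searched on both strands of RefSeq promoters in GRCm38.p6, from 250 bases before to 50 after the start of transcription. It was found in 3781 of 27025 genes (14%) and in 12 of the 44 listed targets with a promoter in the table (27.3%). It was in 7 of 20 non-overlapping members (35%) and in 4 of 16 overlapping members (25%). A match is a description of these letters, not of binding. For 4 non-overlapping members the match and the 20 bases on each side of it lie wholly before the start, and these windows are shown, in the direction of transcription and with the match in capitals. It begins 134 bases before the start in Gclm (chr3:122245403-122245451, plus strand), 133 in Prdx1 (chr4:116685446-116685494, plus strand), 92 in Txnrd1 (chr10:82859094-82859142, plus strand) and 57 in G6pdx (chrX:74428909-74428957, minus strand).
Gclm: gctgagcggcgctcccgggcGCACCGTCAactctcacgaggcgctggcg
Prdx1: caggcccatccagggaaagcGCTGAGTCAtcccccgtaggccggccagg
Txnrd1: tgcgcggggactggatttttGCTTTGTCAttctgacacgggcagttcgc
G6pdx: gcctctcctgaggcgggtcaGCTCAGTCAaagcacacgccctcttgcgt

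Genes of quinone and carbonyl reduction were among the members with the largest differences. Akr1b8 (chr6:34354119-34368463), an aldo-keto reductase, had 35.3, 23.6 and 16.1 FPKM in extract libraries 21, 23 and 25, on an estimated 101 to 133 fragments, against 1.25, 0 and 0 in vehicle libraries 2, 4 and 5. The lowest extract library lay far above the highest vehicle library, with a log2 difference of 4.24 ± 1.17 (SE, n = 3 per group; limma adjusted p = 0.0637). Nqo1 (chr8:107388225-107403206), the quinone reductase that is the most used readout of NRF2, had 22.4, 7.45 and 8.03 against 0.167, 0 and 0. The groups were separate, the log2 difference was 3.53 ± 1.04 and the limma adjusted p was 0.0667. Vehicle libraries 2 and 4 held an estimated 31.7 and 17 fragments in other assembled loci inside Nqo1 that are not part of these values. Cbr3, a carbonyl reductase, had 59.9, 20.7 and 55.4 against 0, 0 and 15.4 (log2 difference 4.05 ± 1.35, limma adjusted p = 0.11). Its neighbour Cbr1 had 25.0, 40.9 and 41.1 against 3.82, 7.77 and 2.31. For both reductases every extract library was above every vehicle library. Esd, an S-formylglutathione hydrolase, had 40.1, 40.8 and 21.2 against 5.72 in vehicle library 4 and 0 in the other two. Its log2 difference was 4.16 ± 1.25, with a limma adjusted p of 0.0699.

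Glutathione S-transferases, which couple electrophiles to glutathione, were split. Gsta4 (chr9:78182774-78209349), which acts on lipid aldehydes, had 18.5, 7.59 and 7.62 FPKM with the extract and was listed at 0 in all 3 vehicle libraries (limma adjusted p = 0.0637). Gstm1 had 103, 102 and 80.8 against 2.28, 14.2 and 25.8, and Gstm3 had 17.4, 6.67 and 16.4 against 0, 0.946 and 0. The groups did not overlap for these 3 genes, and the log2 differences of Gstm1 and Gstm3 were 3.12 ± 1.3 and 3.43 ± 1.11. Gstm2 did not share the direction of the other members: it had 3.67, 7.62 and 5.30 against 0.858, 8.35 and 13.9, a log2 difference of -0.01 ± 1.23. Reads of this family can be assigned to a near-identical copy, which makes the split between Gstm1, Gstm2 and Gstm3 uncertain. Gpx2, the glutathione peroxidase of the gut epithelium, had 13.8, 7.01 and 3.83 against 0.447, 0 and 0. Its groups were separate, but its intervals were too wide to estimate fragments.

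Glutathione synthesis rests on Gclc and Gclm, the catalytic and the modifier subunit of glutamate-cysteine ligase. Gclc had 411, 14.9 and 34.5 FPKM with the extract and 0.253, 17.1 and 0 with the vehicle. The groups overlapped, since vehicle library 4 exceeded extract library 23, and the value of 411 in library 21 rested on an estimated 82 fragments. Gclm had 110, 32.3 and 30.5 against 5.64, 23.6 and 12.4 and did not overlap (log2 difference 1.91 ± 1.28, limma adjusted p = 0.577). The spread between vehicle libraries was thus as large as the difference.

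The thioredoxin, peroxide and NADPH genes whose values are given here were non-overlapping with smaller differences. Me1, another listed target that supplies NADPH, was tested and overlapped. Srxn1 (sulfiredoxin, which repairs peroxiredoxins) had 55.0, 17.9 and 13.9 against 1.20, 2.24 and 7.2. Prdx1, named here for its promoter after its values were seen, had 58.9, 38.0 and 29.1 against 2.09, 15.5 and 5.55. Txnrd1 (thioredoxin reductase) had 21.8, 27.8 and 17.2 against 0.831, 2.89 and 11.2, with intervals too wide to estimate fragments. In each of these 3 genes the ratio of the highest to the lowest FPKM was larger among the vehicle libraries than among the extract libraries. On log2(FPKM + 1) the spreads of Srxn1 were about equal in the 2 groups. The pentose phosphate enzymes G6pdx and Pgd had 8, 27.5 and 7.47 against 0, 0 and 5.00, and 38.0, 39.2 and 60.1 against 0.677, 13.3 and 15.2. Sqstm1, an autophagy receptor that also binds KEAP1, had 108, 62.4 and 48.0 against 2.68, 19.4 and 14.5. The log2 differences of these 6 genes were 2.37 to 2.83, with limma adjusted p between 0.282 and 0.426.

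Heme and iron genes differed among themselves. Hmox1 (chr8:75093621-75100589), heme oxygenase 1, had 22.9, 5.10 and 2.96 FPKM with the extract and was listed at 0 in every vehicle library (limma adjusted p = 0.0738). Library 25 gave it an estimated 12.7 fragments, and its values did not pass the stricter limit. The ferritin light chain Ftl1 had 291, 332 and 176 against 4.78, 132 and 136, a log2 difference of 2.45 ± 1.40. The heavy chain Fth1 had 582, 373 and 362 against 31.3, 504 and 986. Vehicle library 5 thus exceeded every extract library for Fth1 and library 4 lay among them, and its log2 difference was 0.77 ± 1.34 but -0.22 after median-of-ratios scaling. The efflux pump gene Abcc2 had 0.306, 7.67 and 2.98 against 68.0, 0.0614 and 0, so that its log2 difference of -0.23 ± 1.43 rested on vehicle library 2.

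**Figure D2:**
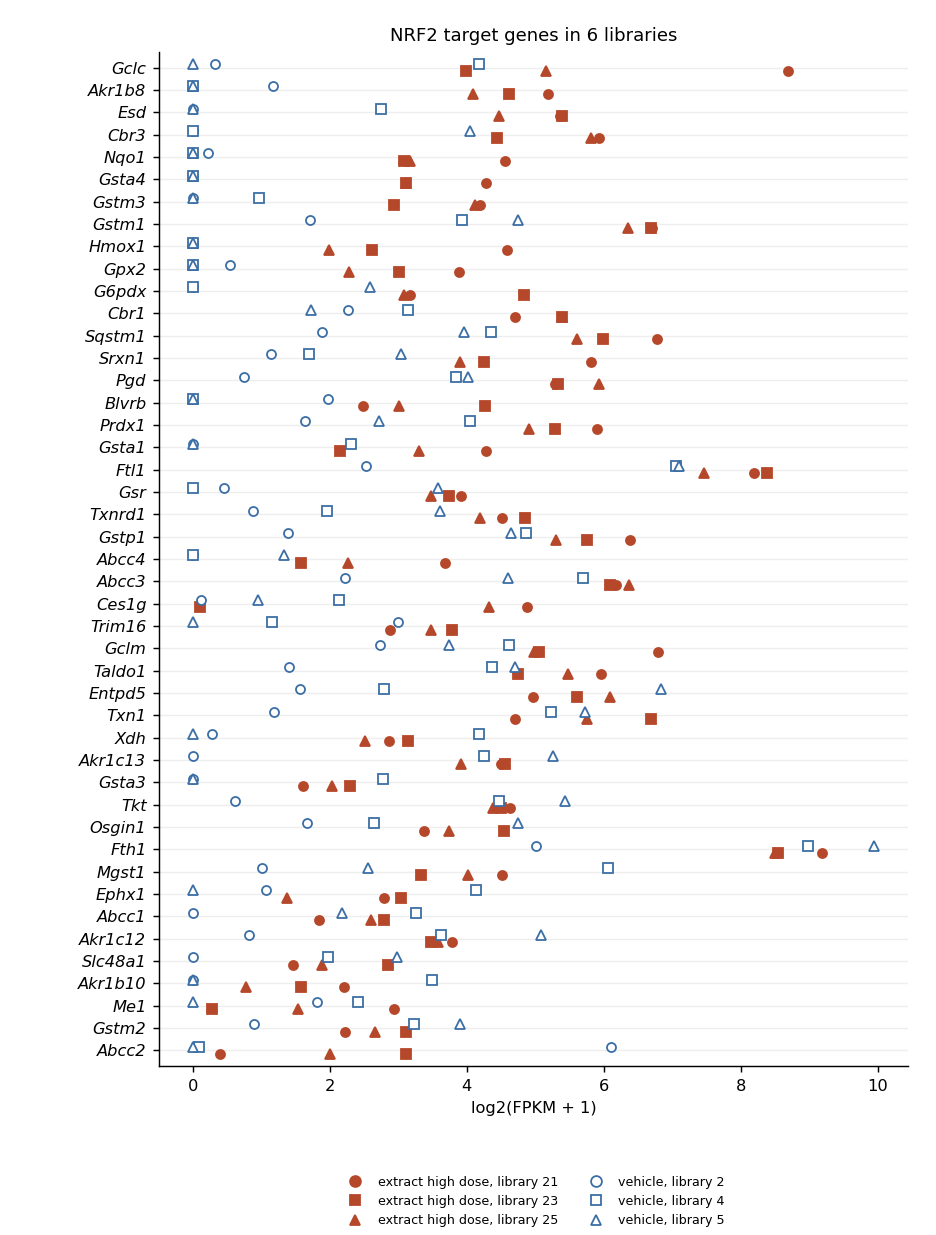
Values of the 45 tested NRF2 target genes as log2(FPKM + 1), filled red symbols for the 3 extract libraries and open blue symbols for the 3 vehicle libraries, ordered by the log2 difference. In 23 genes all red symbols lie to the right of all blue ones, and in Fth1, Gstm2 and Abcc2 near the bottom they mix.

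The pathway's own regulators lay close to the background. Of a list of 10 genes, 9 were tested, and 2 of the 9 (22.2%, against 18.6% of all genes) were non-overlapping. Their median was 0.27 relative to all genes. After median-of-ratios scaling 0 of 9 were non-overlapping. Nfe2l2, which encodes NRF2 and is one of its own targets, had 7.67, 11.2 and 41.7 FPKM against 0.836, 3.35 and 5.11. Keap1 had 9.83, 6.01 and 10.6 against 0.416, 0.668 and 5.86. Both were higher in every extract library than in any vehicle library, by log2 differences of 2.18 ± 1.23 and 1.92 ± 1.18, and neither was called (limma adjusted p = 0.489 and 0.531). Other genes of drug metabolism and efflux answer mainly to nuclear receptors. Of 19 tested, 3 (15.8%, against 18.6% of all genes) were non-overlapping, with a relative median of 0.51. Without vehicle library 5 the count was 10 of 19 (52.6%, against 30.4% of all genes) and the median 1.35. Without vehicle library 4 they were 6 of 19 (31.6%, against 47.2%) and 0.16. Without vehicle library 2 the median was 0, and with array weights it was -0.08. In this list Cyp4f14, a fatty acid hydroxylase, had 10.7, 34.7 and 25.3 against 0.364, 0 and 3.33. Sult1b1, a sulfotransferase of the colon, had 2.55, 18.9 and 2.23 against 0, 0.444 and 0. Cyp1a1, the classic target of the aryl hydrocarbon receptor, was listed at 0 in 5 of 6 libraries and at 1.74 in extract library 23, and was not tested.

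Nuclear genes of the respiratory chain and ATP synthase had the largest median among the metabolic lists. Of 67 genes 64 were tested, 7 of them only because of their extract values. Among the 64, 26 (40.6%, against 18.6% of all genes) were non-overlapping and higher, 12 (18.8%) beyond the stricter limit. The relative median was 1.14. Atp5b, the catalytic beta subunit of ATP synthase, had 635, 767 and 456 FPKM with the extract and 12.7, 67.0 and 243 with the vehicle. Cox5a, of cytochrome c oxidase, had 37.4, 49.4 and 25.0 against 0.494, 12.4 and 0, and Cyc1, of complex III, had 63.0, 58.2 and 43.3 against 5.37, 21.5 and 11.2. In these 3 genes the extract libraries lay within a factor of 2 of each other and above every vehicle library. The log2 differences were 3.31 ± 1.31, 3.77 ± 1.3 and 2.19 ± 1.25 (limma adjusted p = 0.224, 0.129 and 0.492). Of the 26 genes 5 were listed at 0 in every vehicle library, among them Cox7c with 17.4, 18.5 and 14.2 and Ndufv2 with 11.3, 9.74 and 6.41. Neither passed the stricter limit.

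Enzymes of the tricarboxylic acid cycle and of fatty acid oxidation followed with smaller medians. Of 18 tested cycle genes 7 (38.9%, against 18.6% of all genes) were non-overlapping, 5 (27.8%, against 4.71%) beyond the stricter limit. All 18 lay above 0, as did 79.8% of all genes, and the relative median was 0.74. After median-of-ratios scaling 5 of the 18 (27.8%) were non-overlapping, against 15.1% of all genes. Pdha1, of the pyruvate dehydrogenase that feeds the cycle, had 17.5, 22.8 and 17.1 FPKM against 0.566, 7 and 0. Dld, a subunit it shares with other dehydrogenases, had 4.87, 6.44 and 1.07 against 0.134, 0.318 and 0. Of 24 tested genes of fatty acid oxidation and ketogenesis, 8 (33.3%) were non-overlapping and 3 (12.5%) passed the stricter limit, with a relative median of 0.51. After median-of-ratios scaling 6 of the 24 (25%) were non-overlapping. Acadvl, which opens the oxidation of long chains in mitochondria, had 13.2, 20.7 and 13 against 0.245, 0 and 3.95. Etfa, which passes its electrons on, had 15, 40.0 and 20.9 against 0.199, 8.06 and 0. These 4 genes were separate between the groups and none was called. Fatty acid synthesis lay the other way from the rest: 9 of 16 tested genes were above 0 and 1 was non-overlapping, with a relative median of -0.64. Scd1, which desaturates stearate, had 13.8, 7.87 and 7.46 against 4.4, 305 and 54.0, and the transcription factor gene Srebf1 had 1.58, 5.34 and 10.8 against 5.20, 68.7 and 40.7. Both overlapped through vehicle library 2.

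Non-overlapping mitochondrial ribosomal protein genes rested on few fragments, a median of 12.2 in the extract library that held most. Among 36 tested mitochondrial ribosomal protein genes 17 (47.2%) were non-overlapping, but 14 of the 36 passed the filter only through the extract libraries and 0 passed the stricter limit. Mrps12 had 11.8, 20.2 and 7.44 FPKM and Mrps21 had 5.12, 18.8 and 26.9, and neither had a value above 0 with the vehicle. With at least 1 FPKM required in 4 libraries, 3 of 17 (17.6%) were non-overlapping, against 13.2% of all genes. Cytosolic ribosomal protein genes had 7 non-overlapping members among 72 tested (9.72%), with 5 (6.94%) beyond the stricter limit and a relative median of 0.78. Their place beside the 18.6% of all genes depended on scaling and on single libraries. The share was 19.4% against 15.1% after median-of-ratios scaling, 30.6% against 10.7% after quantile normalization, 29.2% against 24.7% without extract library 25 and 61.1% against 47.2% without vehicle library 4.

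The list of secretory protein synthesis holds the oligosaccharyltransferase, which adds sugar chains, and the translocon, which moves proteins into the endoplasmic reticulum. Of its 25 tested members 11 (44%) were non-overlapping and higher, against 18.6% of all genes. But 5 of the 25 had passed the filter only through the extract libraries. Of the 11, 2 passed the stricter limit. Rpn1, a scaffold of the transferase, had 6.80, 10.2 and 10.6 FPKM against 0.591, 2.80 and 0. Ost4 had 24.9, 41.6 and 12.0 and Sec61b had 33.7, 19.6 and 12.8, each with 0 in all vehicle libraries. Ostc had 10.9, 12.0 and 8.58 against 0.293, 0 and 0. The groups of all 4 genes were separate, and the smallest limma adjusted p among them was 0.0637. Chaperones and sensors of the endoplasmic reticulum had 9 of 25 (36%) non-overlapping members, 4 beyond the stricter limit, and a relative median of 0.43. Of these 25, 3 had passed the filter only through the extract libraries. Dnajb9 had 4.45, 3.44 and 3.2 and Sdf2l1, another cochaperone, had 10.3, 6.13 and 4.31, against 0 in all vehicle libraries.

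**Figure D3:**
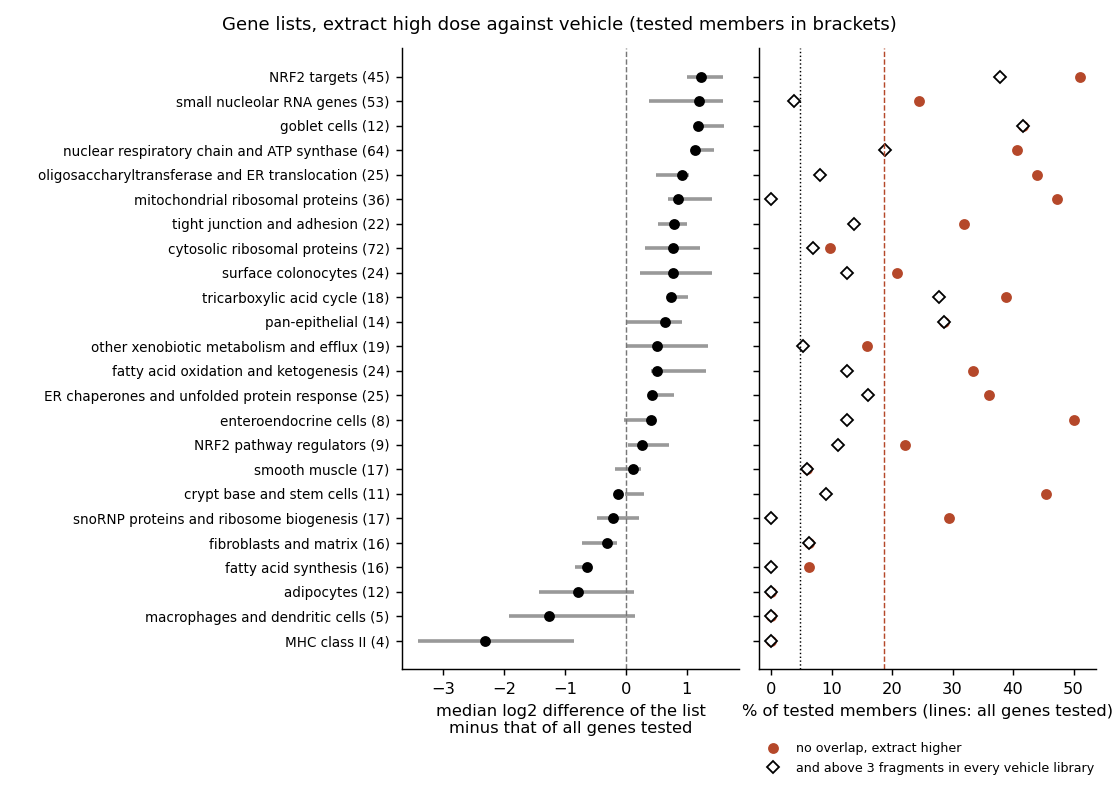
Left, the median log2 difference of each gene list minus the median of all genes tested (black), with the range when each library is left out in turn (grey). Right, the percentage of tested members that were non-overlapping and higher with the extract (red, 18.6% of all genes at the dashed line) and of those also beyond the stricter limit (diamonds, 4.71% at the dotted line). NRF2 targets stand at 51.1% and 37.8%, and MHC class II genes at -2.31 on the left.

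Markers of the tissue's cell types were examined next. In bulk tissue, fewer cells of a type and less RNA per cell cannot be told apart. All 14 pan-epithelial markers were tested and lay above 0, as did 79.8% of all genes. Of the 14, 4 (28.6%, against 18.6% of all genes) were non-overlapping, all beyond the stricter limit, with a relative median of 0.64. The keratin gene Krt19 had 225, 314 and 152 FPKM against 9.85, 40.4 and 108. Summed over the list, the extract libraries had 971 to 1674 FPKM, vehicle libraries 4 and 5 had 882 and 906, and vehicle library 2 had 79.8. The low sum of library 2 was not particular to the epithelium. It was also the lowest of the 6 libraries in summed smooth muscle markers (146 FPKM), fibroblast markers (43.7) and cytosolic ribosomal protein genes (295). Without library 2 the pan-epithelial relative median was 0.01, so that its value rested on that library. This median was -0.11 with a pseudocount of 0.1 and 0.14 with array weights. Of 17 smooth muscle markers 16 lay above 0, with a relative median of 0.12, which was -0.31 after median-of-ratios scaling. In this list 1 gene was non-overlapping and higher and 1, Kcnmb1, non-overlapping and lower (5.88% each, against 18.6% and 0.484% of all genes). Fibroblast and matrix markers had 1 non-overlapping gene of 16 and a relative median of -0.31.

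Goblet cells, which make the mucus layer, had the highest median of the epithelial classes. Of 16 markers 12 were tested, and all 12 lay above 0, as did 79.8% of all genes. Of the 12, 5 (41.7%, against 18.6% of all genes) were non-overlapping, all 5 beyond the stricter limit, with a relative median of 1.19. Tff3, the trefoil peptide secreted with mucin, had 55.0, 216 and 55.5 FPKM against 0.406, 8.42 and 0, and Klk1, a kallikrein, had 51.6, 92.3 and 21.4 against 0.552, 1.69 and 0. Their groups were far apart, with log2 differences of 5.22 ± 1.32 and 4.89 ± 1.23 (limma adjusted p = 0.0637 for both). Sytl2, of granule transport, had 3.87, 32.5 and 3.26 against 0.284, 1.72 and 0.660. Spink4 overlapped, with 52.6, 78.6 and 6.66 against 0, 0 and 45.5. Summed over the 12 tested markers, the values were 436 to 1121 FPKM in the extract libraries and 25.7, 255 and 353 in the vehicle libraries. These sums leave out Muc2, the main mucin, which had no value in extract library 21. It had 906.5 and 878 FPKM in extract libraries 23 and 25, against 194, 536 and 838 in vehicle libraries 2, 4 and 5. With Muc2 the gap between extract library 25 and vehicle library 5 would be small beside the sums, while that of extract library 23 would remain large.

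Of the surface colonocyte markers 5 of 24 tested (20.8%, against 18.6% of all genes) were non-overlapping, with a relative median of 0.78. That median was 0.24 without vehicle library 2, 0.38 without 4, 1.41 without 5, -0.03 with a pseudocount of 0.1 and 0.06 with array weights. Without vehicle library 5 the share was 45.8%, against 30.4% of all genes, but without vehicle library 4 it was 25%, against 47.2%. Car2, a carbonic anhydrase, had 34.6, 144 and 39.0 FPKM against 1.84, 8.27 and 32.4, and Guca2b, the precursor of uroguanylin, had 3.35, 3.50 and 11.7 against 0 in every vehicle library. Enteroendocrine cells had 4 of 8 tested markers non-overlapping (50%), 2 of the 8 having passed the filter only through the extract libraries, and 1 was beyond the stricter limit. After median-of-ratios scaling 1 of 8 (12.5%) was non-overlapping, against 15.1% of all genes, and after quantile normalization 0 of 8, against 10.7%. The hormone gene Pyy had 1.24, 164 and 8.63 and Sct had 6.91, 3.48 and 8.72, against 0 throughout and 0.321, 0 and 0. Extract library 23 alone carried most of the Pyy signal. Crypt base markers were non-overlapping in 5 of 11 tested genes (45.5%), 4 of the 11 having passed the filter only through the extract libraries, and their relative median was -0.13. With 1 FPKM required in 4 libraries 1 of 7 (14.3%) was non-overlapping, against 13.2% of all genes, and after median-of-ratios scaling 2 of 11 (18.2%), against 15.1%. Slc12a2, the basolateral chloride importer of crypt cells, had 4.42, 12.5 and 7.54 against 0.579, 0.482 and 0 and was the member beyond the stricter limit. Smoc2 had 1.34, 2.82 and 1.96 against 0 in all vehicle libraries.

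Tight junction and adhesion genes were non-overlapping in 7 of 22 tested members (31.8%, against 18.6% of all genes), 3 beyond the stricter limit, with a relative median of 0.80. Of the 22, 3 had passed the filter only through the extract libraries, and after median-of-ratios scaling 3 (13.6%) were non-overlapping, against 15.1% of all genes. Cldn2, a pore-forming claudin of leaky epithelia, had 10.2, 5.18 and 4.67 FPKM against 0.675, 0.983 and 0, and Marveld2, which sits where 3 cells meet, had 3.13, 2.78 and 1.80 against 0, 0.337 and 0. Both pairs of groups were separate, with limma adjusted p of 0.288 and 0.0828. The acute phase gene Saa1 had 9.56, 924 and 25.6 against 20.5, 1.15 and 0, so that its difference rested on extract library 23 and the groups overlapped.

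Markers of antigen-presenting cells and adipocytes lay lower than the rest of the genes, with the highest values in 1 vehicle library. All 4 tested MHC class II genes, which present antigen, lay below 0, with a relative median of -2.31. Cd74, the invariant chain, had 2.74, 13.4 and 4.10 FPKM against 1.02, 325 and 7.36, and H2-Aa had 0, 14.8 and 4.24 against 0, 166 and 10.7. Both were high in vehicle library 4 alone, and without it their log2 differences were 0.66 and 0.35. Summed MHC class II genes were 606 FPKM in vehicle library 4, 1.02 and 37.2 in the other vehicle libraries and 5.92 to 45 in the extract libraries. Macrophage and dendritic cell markers had 2 of 5 tested genes above 0 and a relative median of -1.25. Without vehicle library 4 the relative medians were -0.86 for MHC class II and 0.15 for macrophages, of which 3 of 5 were then non-overlapping and higher. Adipocyte markers had 7 of 12 above 0 and a relative median of -0.78, with a summed 750 FPKM in vehicle library 4, 15.3 and 35.3 in the other vehicle libraries and 84.4 to 164 in the extract libraries. Without library 4 that median was 0.13, with 7 of 12 non-overlapping and higher (58.3%, against 47.2% of all genes), and with array weights it was 0.14. The low values of these lists thus rested on vehicle library 4, and for MHC class II in part. Cfd, the adipsin gene, had 45.8, 12.7 and 8.82 against 2.33, 239 and 0. With all 6 libraries, no member of these 3 lists was non-overlapping in either direction.

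Of the 10 non-overlapping genes with the smallest p and a mean of at least 5 FPKM in the extract group, 6 encode small nucleolar RNAs. These short RNAs of the nucleolus are mostly cut from introns and guide the modification of ribosomal RNA. Those of the C/D type direct methylation and those of the H/ACA type direct pseudouridine formation. The 6 are shown in GRCm38, with the C box TGATGA and the D box CTGA, or the ACA that stands before the last 3 bases, in capitals: Gm23734 (chr1:127375131-127375239, plus strand), Snord11 (chr1:59704790-59704873, plus strand), Gm22422 (chr16:56035753-56035887, minus strand), Gm23455 (chr9:15316489-15316588, plus strand), Snora78 (chr17:24719676-24719803, minus strand) and Gm24233 (chr12:59134072-59134193, plus strand).
Gm23734: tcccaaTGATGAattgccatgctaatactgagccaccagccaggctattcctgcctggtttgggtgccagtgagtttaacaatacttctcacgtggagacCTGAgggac
Snord11: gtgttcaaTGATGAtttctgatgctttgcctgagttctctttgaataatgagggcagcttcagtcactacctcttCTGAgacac
Gm22422: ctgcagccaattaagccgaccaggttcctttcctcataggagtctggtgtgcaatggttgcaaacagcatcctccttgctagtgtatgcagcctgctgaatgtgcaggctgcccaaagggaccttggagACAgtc
Gm23455: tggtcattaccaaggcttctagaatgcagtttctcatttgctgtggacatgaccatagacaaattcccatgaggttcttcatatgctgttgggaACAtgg
Snora78: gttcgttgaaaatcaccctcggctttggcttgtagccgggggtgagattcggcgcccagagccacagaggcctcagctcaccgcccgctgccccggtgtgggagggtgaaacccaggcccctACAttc
Gm24233: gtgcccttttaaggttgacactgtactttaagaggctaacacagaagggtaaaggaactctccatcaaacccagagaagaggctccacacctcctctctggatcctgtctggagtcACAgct

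The values of these genes rested on few fragments. Gm23734 had 69.9, 159 and 94.6 FPKM in the extract libraries and was listed at 0 in every vehicle library, with a limma adjusted p of 0.0637. Those values stand for an estimated 3, 16 and 7 fragments, and 3 fragments in vehicle libraries 2, 4 and 5 would have read as 39.5, 104 and 387 FPKM. In vehicle libraries 4 and 5 the limit thus lay above the lowest extract value. Snord11, at 84 bases, had 97.3, 151 and 31.0 FPKM on at most 6 estimated fragments, Gm22422 had 25.2, 162 and 47.8, and Gm23455 had 21.8, 42.9 and 24.9. Snora78 had 18.4, 45.5 and 20.1 and Gm24233 had 64.5, 53.3 and 8.11. None of the 5 had a value above 0 with the vehicle, and none passed the stricter limit. Over all small nucleolar RNA genes, 53 of 1559 were tested, 9 of them only through the extract libraries. Of the 53, 13 (24.5%, against 18.6% of all genes) were non-overlapping, 2 beyond the stricter limit. With 1 FPKM required in 4 libraries 4 of 31 (12.9%) were non-overlapping, against 13.2% of all genes. Those 2 were Scarna2, with 134, 277 and 146 FPKM against 0, 106 and 21.2, and Gm23119, with 392, 384 and 430 against 49.0, 197 and 197. The highest estimated fragments of the 13 in any extract library had a median of 14 and a range of 3 to 188.

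Host genes were compared with the RNAs they carry. Of the 53 tested genes, 40 lie inside a protein-coding gene of the same strand, and for 32 of the 40 the host was tested. Of the 13 non-overlapping RNAs 6 had a tested host, and in 1 of the 6, Gm24233 in Mia2, the host was non-overlapping and higher too. Nop58, the host of Snord11 and itself a core protein of C/D particles, had 4.54, 5.11 and 0.930 FPKM with the extract and 0, 19.2 and 0 with the vehicle. Its groups overlapped. Of 17 tested protein genes of these particles and of ribosome assembly, 5 (29.4%, against 18.6% of all genes) were non-overlapping and higher. Another 2 (11.8%, against 0.484%), Nop56 and Polr1a, were non-overlapping and lower. The number of lower genes over all genes depended on scaling, as given above. The relative median of the list was -0.21. Of the 17, 4 had passed the filter only through the extract libraries, and after median-of-ratios scaling 2 (11.8%) were non-overlapping and higher, against 15.1% of all genes. Gar1, an H/ACA protein, had 12.3, 3.97 and 2.29 against 0 in all vehicle libraries.

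**Figure D4:**
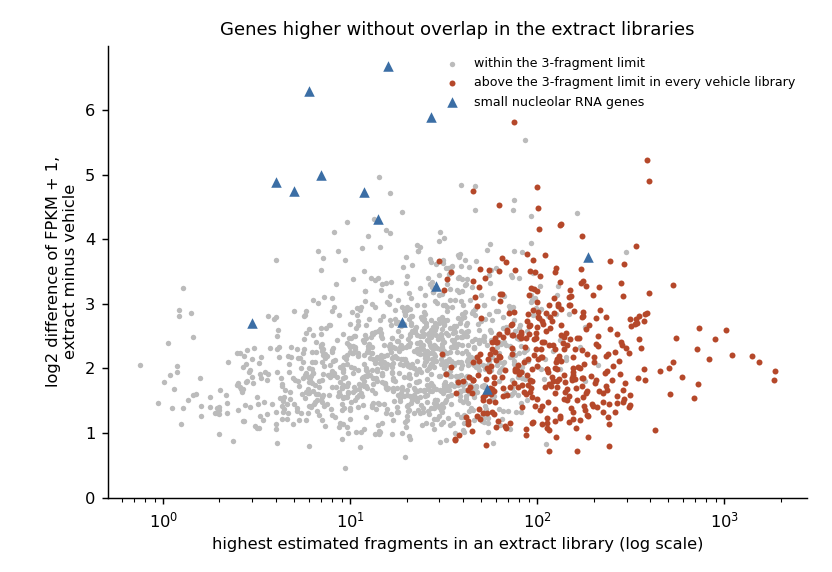
Each point is a gene whose extract values all exceed its vehicle values, with the highest estimated number of fragments in an extract library on a log axis and the difference of log2(FPKM + 1) on the vertical axis. Genes with an estimate under 0.5 are not drawn. Red points are genes whose lowest extract value exceeds the FPKM that 3 estimated fragments would give in each vehicle library. The 13 small nucleolar RNA genes (triangles) lie mostly at the upper left, at large differences and few fragments.

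The other 4 of the 10 genes were Atp5mpl, Gm17092, Rab25 and Coa3. Atp5mpl, a small protein of ATP synthase, had 78.5, 104 and 11.0 FPKM and Rab25, an epithelial GTPase of apical recycling, had 19.0, 50.2 and 20.9, against 0 in all vehicle libraries. Coa3, an assembly factor of cytochrome c oxidase, had 23.6, 25.4 and 18 against 0 and, unlike those 2, passed the stricter limit. Gm17092, an antisense gene, had 118, 86.2 and 256 against 0, 0 and 14.2. If the libraries did not keep the strand, its reads cannot be told from those of the gene it overlaps. All 4 had the smallest adjusted p of the test, 0.0637.

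On the values as deposited, genes lower in every extract library were few (40, or 0.484%). Their number was many times larger after either scaling between libraries, as given above, so that this scarcity depended on scaling. Nop56 (chr2:130274430-130279313), a core protein of C/D small nucleolar particles, had 0, 0 and 1.33 FPKM with the extract and 3.23, 82.5 and 41.8 with the vehicle. It had the smallest p of the lower genes, with a log2 difference of -4.22 ± 1.3 and a limma adjusted p of 0.0767. Gm15054 (chr6:52357544-52357824) had 0, 1.31 and 0 against 5.65, 16.9 and 82.8 and was the lower gene called when only the 756 genes with a row of their own were tested. Samhd1, a nucleotide hydrolase that restricts viruses, had 1.38, 8.79 and 1.18 against 44.3, 15 and 64.6, and Pim2, a survival kinase, had 1.32, 0.127 and 0.448 against 6.24, 13.1 and 18.6. For Gm15054, Samhd1 and Pim2, and for Pde3b and Rapgef4 named next, the highest value was in vehicle library 5, the shallowest of the 6. Pde3b, a phosphodiesterase, had 0.307, 0.965 and 1.78 against 9.30, 14.0 and 28.0, and Rapgef4, an exchange factor, had 0, 0.194 and 4.69 against 15.3, 8.45 and 22.8. Tead2, a transcription factor of Hippo signalling, had 0.260, 0.660 and 0.464 against 13.6, 253 and 1.3, most of it in vehicle library 4. Sh3gl3, Tmtc4 and Ebf1 complete the 10 with limma adjusted p of 0.143, 0.257 and 0.324, and their highest extract values were 0.725, 2.27 and 0.503 FPKM.

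**Figure D5:**
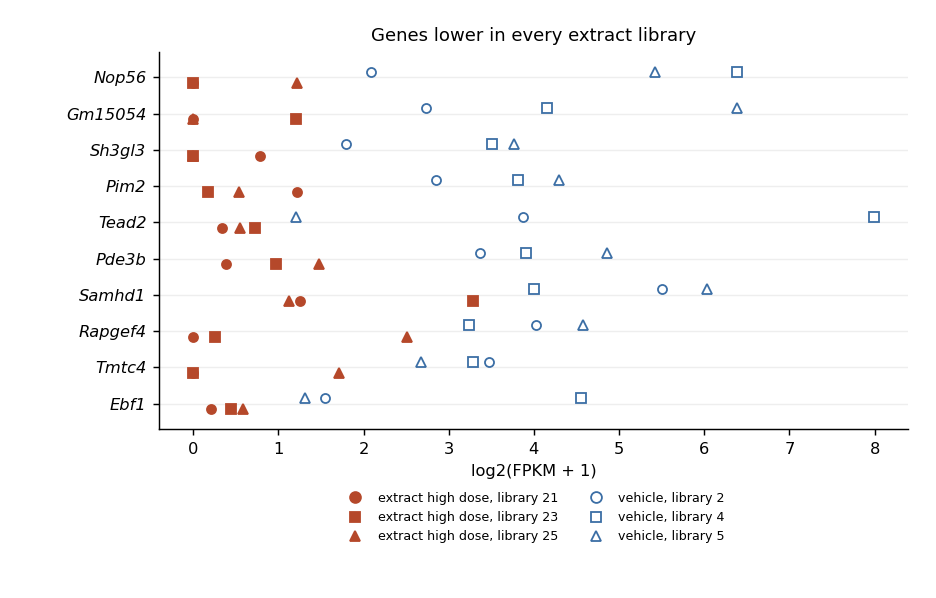
Values of the 10 genes with the smallest p among those lower in every extract library, as log2(FPKM + 1), filled red symbols for the extract and open blue symbols for the vehicle. For Nop56 2 of the 3 extract libraries stand at 0 while vehicle libraries 4 and 5 stand at 82.5 and 41.8 FPKM, and for Tead2 and Ebf1 1 vehicle library lies close to the extract values.

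The choice of genes to test changed the number of calls. When the 756 genes with a row of their own in all 6 tables were tested alone, limma called 96 higher (12.7%) and 1 lower (0.132%). Among the 756 were 3 NRF2 targets, of which Gsta4 and Gpx2 were called and Slc48a1 was not. Gsta4 then had a limma adjusted p of 0.0268, against 0.0637 over 8267 genes. Gm23734, Snord11, Snora78 and Coa3 were also called there.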

How the data were processed

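Ribosomal RNA was removed from 90 ng of total RNA before low-input library preparation, per the labels' protocols. The submitters' processing notes name STAR 2.4.0j and the build GRCm38.p4. The authors deposited FPKM values with a lower and an upper bound, in 1 gene tracking table of the Cufflinks kind per library, per the file headers. The quantifier's version and settings, and whether the libraries were scaled to each other, were not given in the sources used here. Reads were not analysed here.

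A gene's value is its own row or, failing that, the locus assembled in that library whose span shares at least 0.5 of the joint span with the gene in GENCODE M21, when each is the other's best match. Positions are those of GENCODE M21. Small nucleolar RNA sequences are GENCODE transcripts, and promoters are RefSeq's. Fragments were estimated as the square of 2 FPKM over the upper half-width of the interval, as if that width were counting error only. Where an interval was wider than counting would make it, as for Gpx2 and Txnrd1, the estimate is too low. The interval does not cover the spread between libraries. Tests were run on genes that had a value in each of the 6 libraries and at least 1 FPKM in 3, using log2(FPKM + 1), which understates the change of low genes, with limma 3.58.1 in R 4.3.3 (moderated variances with an intensity trend, two-sided). P-values were adjusted by Benjamini-Hochberg over all genes tested, and the fit was tested on simulated data. The smallest p that an exact test can give here, with 3 libraries per group, is 0.1. The plan named a count test for the case that the tables held counts, and they do not.

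Genes named are a fixed group of NRF2 targets, the 10 non-overlapping genes with the smallest p in each direction and a mean of at least 5 FPKM in the higher group, and up to 4 members per list with the smallest p or that show a library standing apart. Scarna2, Gm23119, Cyc1, Rpn1, Atp5b, Cox5a, Mrps21, Sqstm1, Cbr1, Gstm2, Gstm3, G6pdx, Pgd, Ftl1, Fth1, Abcc2, Cfd, Prdx1, Polr1a and Nop58 were added after their values were seen. The comparison, the lists and the rule were chosen with earlier results of these data known. Alternatives changed the pseudocount, filter, scaling, array weights, trend and libraries. Tests on own rows, on exonic pieces, on at least 5 fragments and the 3-fragment limit were added after seeing the data.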

Additional observations from a re-analysis of the deposited data

Results flagged for a closer look

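A pair of list members, Muc2 and Ndufb7, could not be tested because 1 library gave them no value, although the other libraries did. Muc2, the main mucin of goblet cells, had 906 and 878 FPKM in extract libraries 23 and 25 and no value in extract library 21, against 194, 536 and 838 in vehicle libraries 2, 4 and 5. The lowest extract value, 878, lay above the highest vehicle value of 838, by less than the vehicle libraries differed from each other. Ndufb7, a subunit of complex I, had 31.8 and 9.97 FPKM in extract libraries 21 and 23 and no value in library 25, against 0.193, 0 and 0 with the vehicle. No test was made for either gene.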

How the results depend on the processing

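No paired analysis was possible because the labels give the libraries of the 2 groups no replicate numbers in common. Genes called higher numbered 0, and 447 with a pseudocount of 0.1, 14 with array weights, 5 in a fit of all 15 libraries, 2 after quantile normalization, 96 on own rows and 0 to 356 with 1 library left out (356 without extract library 21, 266 without 25). Genes called lower numbered 2 with array weights, 1 on own rows and 0 with any 1 library left out. Non-overlapping higher genes numbered 2664 without a filter on low values, 838 with at least 1 FPKM in 4 libraries, 881 after quantile normalization, 183 on own rows, 892 with at least 5 estimated fragments, 389 above the 3-fragment limit and 1657 to 3898 with 1 library left out (3898 without vehicle library 4, 2510 without 5). Lower ones numbered 306 after median-of-ratios scaling, 678 after quantile normalization, 3 on own rows, 17 with at least 5 fragments and 54 to 734 with 1 library left out (734 without vehicle library 2, 157 without 5 and 112 without extract library 23). The median over all genes was -0.0498 after quantile normalization and 0.29 to 1.36 with 1 library left out.

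The order of the lists changed with the setting: with a pseudocount of 0.1, NRF2 targets were at 1.12, below mitochondrial ribosomal proteins, the oligosaccharyltransferase list, the respiratory chain (1.49) and goblet cells (1.33). Relative medians of lists moved by more than the spread between libraries in these cases. NRF2 targets were at 2.01 on own rows. With a pseudocount of 0.1, mitochondrial ribosomal proteins were at 1.90, cytosolic ones at 0.24, the oligosaccharyltransferase list at 1.5, fatty acid synthesis at -1.21, smooth muscle at -0.67 and fibroblasts at -0.96. Without a filter, the tricarboxylic acid cycle was at 1.25, cytosolic ribosomal proteins at 1.3, chaperones at 0.91, tight junctions at 1.3, fatty acid synthesis at -0.13 and fibroblasts at 0.21. Tight junctions were at 0.32 after median-of-ratios scaling. The oligosaccharyltransferase list was at 0.26 with 4 libraries required and -0.57 on own rows. With 1 library left out, fatty acid oxidation ranged from 0.41 to 1.32, fibroblasts from -0.72 to -0.14, pan-epithelial markers from 0.01 to 0.92, surface colonocytes from 0.24 to 1.41, xenobiotic metabolism from 0 to 1.35, MHC class II from -3.41 to -0.86, macrophages from -1.91 to 0.15 and adipocytes from -1.43 to 0.13.

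Single genes changed sign as follows, and the cause was not tested. Fth1 was at -0.22 after median-of-ratios scaling and ranged from -0.72 (without vehicle library 2) to 1.75 with 1 library left out. Gstm2 was at 0.16 with a pseudocount of 0.1 and ranged from -0.90 to 0.60 (0.21 without extract library 21, 0.27 without vehicle library 4 and 0.60 without 5). Abcc2 was at 1.05 with that pseudocount and 0.27 with array weights, and ranged from -1.27 to 1.79 (0.49 without extract library 21 and 1.79 without vehicle library 2). Cd74 ranged from -3.01 to 0.66 and H2-Aa from -3.34 to 0.35, both highest without vehicle library 4. Cfd was at -0.11 after quantile normalization and ranged from -0.61 (without vehicle library 5) to 3.34. Depth limits every value listed at 0 in the vehicle libraries: of the 1540 non-overlapping higher genes, 305 (19.8%) had under 10 estimated fragments in every extract library. A fit with voom on estimated fragments was not run.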
